A study of Homo sapiens with 9 samples.

Results

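Long intergenic non-coding RNAs (lincRNAs) were described in the human renal carcinoma cell line ACHN, treated or not with piericidin A, which blocks complex I of the respiratory chain. The members were the rows that the authors typed lincRNA in their table of 18859 genes detected in every library. Of 1186 such rows, 9 were left out (MALAT1, NEAT1 and the SNHG host genes of small nucleolar RNAs), which gave 1177 members. Since that table keeps only genes above 0 in all 9 libraries, a lincRNA listed at 0 in any library is not among them.

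Cells in all 3 groups were adherent ACHN cells in MEM medium on 6-well plates, with 3 libraries per group. Controls received 0.1% DMSO, and the other groups received 25 nM or 50 nM piericidin A. The labels do not give the length of treatment or say whether the piericidin A wells also held DMSO. They speak of duplicate samples without saying that these were separate cultures, so the p-values measure only the spread between these libraries, which may be technical. ACHN is a single established line, and in bulk RNA fewer cells of a kind cannot be told apart from less RNA per cell.

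A lincRNA is a spliced or unspliced transcript of RNA polymerase II that lies outside annotated coding genes and has no long reading frame. Known members act in several ways: some bind RNA-binding proteins or chromatin complexes, some are the precursors from which microRNAs are cut, and for many the act of transcription near a gene is all that is known. Most are made at low levels and are restricted to few tissues, and many start next to a coding gene's promoter.

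Promoters are shown for 4 members: the 2 largest rises and 2 largest falls at 50 nM with an entry in the RefSeq promoter table (GRCh38.p14), among called members that averaged at least 1 FPKM and whose groups did not overlap. They are shown since these are the sites where the RNAs described next begin. Each runs 5′ to 3′ on the gene's strand, from 250 bases before to 50 bases after the start. The first is LINC02595 (ENSG00000231566, under a clone-based name in the authors' table), at chrX:45851441-45851740 on the minus strand. MEG3 lies at chr14:100825858-100826157 on the plus strand, inside the authors' longer MEG3 row. MIR210HG lies at chr11:568408-568707 on the minus strand. NORAD, the authors' LINC00657, lies at chr20:36050911-36051210 on the minus strand. Capitals mark matches on either strand to ACGTG or GCGTG, the core of a hypoxia response element, to TATAAA and to CCAAT. The heat shock element motifs GAANNTTC and TTCNNGAA were also searched and have no match in these windows.
LINC02595: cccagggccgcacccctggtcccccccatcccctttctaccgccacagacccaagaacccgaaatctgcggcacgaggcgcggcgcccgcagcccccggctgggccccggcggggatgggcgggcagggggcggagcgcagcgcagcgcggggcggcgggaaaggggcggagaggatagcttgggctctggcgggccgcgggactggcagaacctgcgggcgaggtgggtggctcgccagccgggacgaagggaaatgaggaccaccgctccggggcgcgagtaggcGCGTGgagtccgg
MEG3: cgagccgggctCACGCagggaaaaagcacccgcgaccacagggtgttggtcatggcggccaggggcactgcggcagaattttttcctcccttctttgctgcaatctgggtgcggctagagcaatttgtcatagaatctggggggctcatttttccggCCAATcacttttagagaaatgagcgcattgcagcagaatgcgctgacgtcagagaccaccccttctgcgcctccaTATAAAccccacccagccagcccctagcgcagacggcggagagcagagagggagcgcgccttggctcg
MIR210HG: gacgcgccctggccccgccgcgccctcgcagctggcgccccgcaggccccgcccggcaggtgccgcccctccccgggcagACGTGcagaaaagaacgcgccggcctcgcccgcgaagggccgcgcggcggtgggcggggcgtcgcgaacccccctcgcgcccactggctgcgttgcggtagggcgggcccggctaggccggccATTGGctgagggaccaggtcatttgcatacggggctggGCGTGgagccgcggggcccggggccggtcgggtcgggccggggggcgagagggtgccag
NORAD: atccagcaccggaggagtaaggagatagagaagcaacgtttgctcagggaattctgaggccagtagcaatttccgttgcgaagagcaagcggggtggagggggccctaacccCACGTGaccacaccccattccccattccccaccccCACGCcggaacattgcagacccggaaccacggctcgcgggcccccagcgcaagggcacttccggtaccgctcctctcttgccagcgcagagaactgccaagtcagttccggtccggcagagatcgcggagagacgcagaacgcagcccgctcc
Of the members, 272 had a promoter in the table. ACGTG, which in the NORAD promoter reads on both strands of the same 6-base site, was in 21.6% of all 27305 promoters and in 27.9% of the members' promoters. Among members whose level fell at 50 nM, 14 of the 28 with a promoter held it, and among those whose level rose, 8 of 29 did. GCGTG was in 36.3% of all promoters, 16 of the 28 and 14 of the 29. CCAAT was in 35.7% of all, 10 of the 28 and 15 of the 29, and TATAAA in 12% of all, 2 of the 28 and 4 of the 29. GAANNTTC was in 6.87% of all, 2 of the 28 and 2 of the 29, and TTCNNGAA in 7.84% of all, 2 of the 28 and 6 of the 29. A match is a description of the letters and not a bound site.

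As a class the members were short, weakly expressed RNAs. Their median gene length was 1515 bases, against 4997 for coding rows, and their median level was 0.416 FPKM (fragments scaled by gene length and library depth), against 4.82 for coding rows. Only 293 of 1177 averaged at least 1 FPKM over the 9 libraries, and 18 averaged at least 10. In GENCODE 29, 1148 were found by identifier, of which 360 had a single exon block. That release types 1077 members as lincRNA and 18 as protein-coding, and it does not list 29. Another gene's interval was overlapped by 373 members, and 142 did so on the same strand. Whether the libraries kept strand is not given in the sources used here, so reads of overlapping genes cannot be told apart. For 85 members at least 50% of the transcript matched another gene at 95% identity or more, so their reads could be split between copies.

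The most abundant member, RP11-490M8.1 (chr2:36354749-36355114, minus strand, a single exon 812 bases from the start of CRIM1), stood at 48.4, 41.4 and 45.8 FPKM in DMSO. It was listed at 51.2, 48.1 and 58.6 FPKM at 25 nM and at 47.3, 42.3 and 46.3 FPKM at 50 nM. DMSO overlapped both doses, the 25 nM libraries all lay above the 50 nM libraries, and no contrast was called in the main fit. Some alternative fits called its rise at 25 nM, with adjusted p from 0.0172 (limma with a replicate block) to 0.0433 (limma without DMSO replicate 1). Its fall between the doses was called by limma with a replicate block (adjusted p = 0.0312) and without 25 nM replicate 2 (0.0433). NORAD averaged 44.7 FPKM over the 9 libraries, LINC00998 40.9, CH507-513H4.3 31.9 and LINC01116 27.9.

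Recovered fragments per library ranged from 24365472 to 29245674, and the median tested member had 31 fragments per library, which sets a coarse limit on single values. The third 25 nM library stood apart from the other 25 nM libraries: their chi-square per degree of freedom was 18 and 20.1 over all rows, against 2.5 between replicates 1 and 2. Over the tested members these values were 2.48 and 2.86, against 1.46. Of 10 renal epithelial genes 9 reached 1 FPKM in some library, while 0 of 5 leukocyte and 0 of 4 endothelial genes did, as did 1 of 4 fibroblast genes.

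Members held a small part of the RNA, and that part was larger at 50 nM. Their share of recovered fragments was 0.269 ± 0.00305% in the DMSO group, 0.256 ± 0.000919% with 25 nM and 0.315 ± 0.00652% with 50 nM (SD, n = 3). The 3 libraries at 50 nM (0.308 to 0.321%) all lay above the 6 others. The fragment share was taken over the 18859 genes detected in every library. The share of summed FPKM was taken over all 30673 genes, and it weights short genes more. Its order differed: 0.539 ± 0.00439% in the DMSO group, 0.475 ± 0.00961% with 25 nM and 0.536 ± 0.00958% with 50 nM (SD, n = 3). The members' own summed FPKM was 1360 in the DMSO group, 1376 with 25 nM and 1527 with 50 nM. The parts of the gene set and of length weighting in the different order were not tested. The number of members at 0.5 FPKM or more was 480 ± 14.2 in the DMSO group, 483 ± 5.51 with 25 nM and 553 ± 15.9 with 50 nM. In the same libraries the number of all genes above 0 went from 23939 ± 291 in DMSO to 25936 ± 453 at 50 nM, and its part in the result was not tested.

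Of the members, 589 passed the filter of 0.5 FPKM in at least 3 libraries and were tested with limma on log2(FPKM + 0.1) together with all 15541 genes that passed. A call is a Benjamini-Hochberg adjusted p under 0.05 over those genes. The filter admits a few members through a single group: 7 reached 0.5 FPKM in the 3 DMSO libraries and in no other, 1 at 25 nM and 6 at 50 nM. Counts over tested members are therefore given as a description.

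At 25 nM, 83 members rose and 79 fell (14.1% and 13.4% of those tested), with a median log2 fold change of 0.01. Over all genes tested 26.3% were called higher and 25.8% lower, or 52% in all. At 50 nM, 152 members rose and 74 fell (25.8% and 12.6%), with a median of 0.13. All genes tested gave 29.2% higher and 31.5% lower, or 60.7% in all, with a median of 0.00. Coding rows at 50 nM gave 25.7% higher and 39.9% lower, with a median log2 fold change of -0.09. From 25 to 50 nM, 94 members rose and 21 fell (16% and 3.57%, median 0.18), against 14.7% higher and 18.8% lower of all genes, or 33.5% in all. The share called in either direction was thus below the background in each contrast, and the standard error was larger: its median was 0.22 for members and 0.07 for coding rows. At 25 nM higher and lower calls were near equal among members and among all genes. In both 50 nM contrasts the members' share of higher calls was near that of all genes and their share of lower calls was below it. Scaled by the total of recovered fragments instead of the authors' scaling, the 50 against 25 nM split was 116 higher and 10 lower, with 20.3% and 8.72% of all genes called, and the median over all genes moved by 0.10. At 50 nM against DMSO that scaling gave 170 higher and 59 lower, with 34.1% and 26.4% of all genes called. The number that fell from 25 to 50 nM was 12 without 50 nM replicate 1. Without 25 nM replicate 3 the counts were 75 and 84 at 25 nM, and 100 and 22 from 25 to 50 nM.

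Changes of at least 2-fold that were called numbered 28 rises and 28 falls at 25 nM (4.75% each, against 3.73% and 1.67% of all genes). At 50 nM there were 67 rises and 17 falls (11.4% and 2.89%, against 9.52% and 1.78%). Between the doses 26 members rose and 1 fell by that much (4.41% and 0.17%, against 2.35% and 0.135%). The excess of rises over falls in both 50 nM contrasts was thus also present over all genes. Of the tested members 296 were called in no contrast, and 17 were called higher in all 3. The same counts were not made over all genes, so these 2 are a description only. In the 3 contrasts 27.5%, 38.4% and 19.5% of members were called in either direction, against 52%, 60.7% and 33.5% of all genes.

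**Figure D1:**
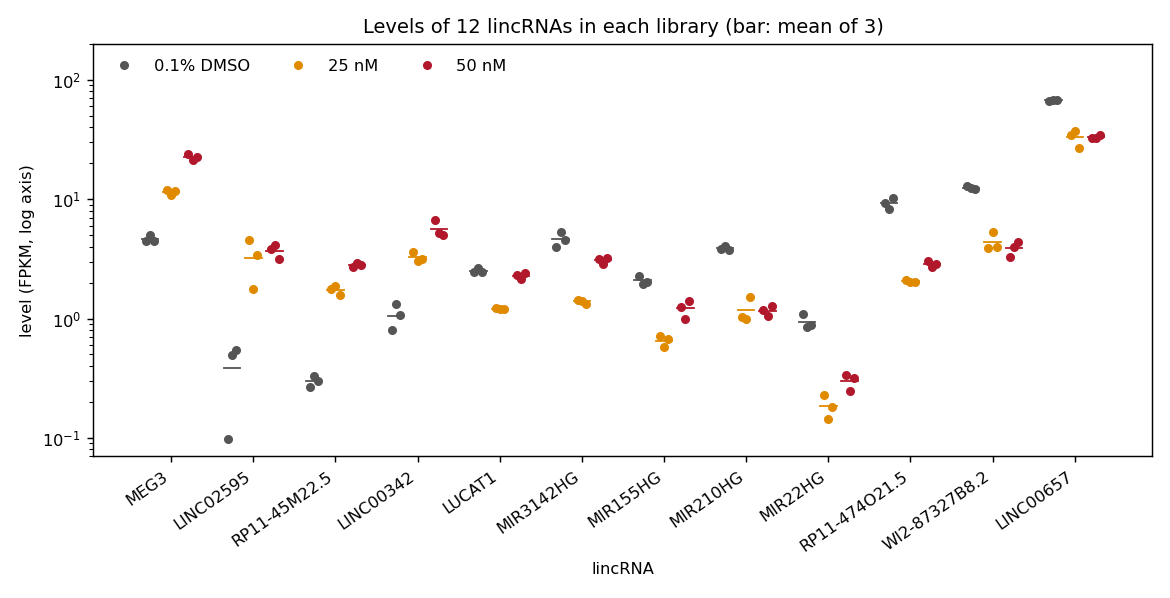
Level of 12 lincRNAs in each library (FPKM, log axis), coloured by group, with a bar at the mean of 3 libraries. MEG3 rises in steps from 4.45 to 4.96 FPKM in DMSO to 21.2 to 24 at 50 nM, LUCAT1 and MIR3142HG are lowest at 25 nM, and the groups of LINC00657 (NORAD) at 25 and 50 nM overlap.

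MEG3, a maternally expressed imprinted RNA known as a growth suppressor that is often silenced in tumours, showed the most precise large rise. It lies at chr14:100779410-100861031 on the plus strand, and its row also spans MIR770. The nearest coding gene detected in every library, WDR25, lies 249107 bases away. Coding genes listed at 0 in any library were not considered as neighbours, here or below, so a nearer one may exist. For MEG3, the level in each library was as follows. MEG3 stood at 4.45, 4.96 and 4.48 FPKM in DMSO, 12.1, 10.9 and 11.8 FPKM at 25 nM, and 24, 21.2 and 22.6 FPKM at 50 nM. The 3 groups did not overlap and followed the dose. The log2 fold change was 1.30 ± 0.06 (SE, limma adjusted p = 2.05e-06) at 25 nM and 2.26 ± 0.06 at 50 nM (adjusted p = 1.14e-07), and the step between the doses was 0.96 (adjusted p = 0.00011). WDR25 was not called at either dose (log2 fold changes of 0.07 and -0.21).

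LINC02595 (chrX:45848074-45851490, minus strand) lies 595367 bases from its nearest detected coding gene, KRBOX4. It stood at 0.0985, 0.498 and 0.548 FPKM in DMSO, where the first library held 1 fragment. At 25 nM it was 4.53, 1.75 and 3.43 FPKM, and at 50 nM 3.82, 4.11 and 3.14 FPKM. Every treated library lay above every DMSO library, and the doses overlapped. Its log2 fold change was 2.87 ± 0.48 (SE) at 25 nM and 3.15 ± 0.48 at 50 nM (limma adjusted p = 0.00151 and 0.000682), with 0.27 between the doses (adjusted p = 0.697).

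RP11-45M22.5 (chr17:17235433-17236118, minus strand) is a single-exon RNA inside FLCN, the folliculin tumour suppressor gene, on the same strand and sharing no base with its exons. Its level was 0.269, 0.327 and 0.3 FPKM in DMSO, 1.77, 1.86 and 1.57 at 25 nM. With 50 nM it was 2.71, 2.92 and 2.79 FPKM. The groups did not overlap. The log2 fold changes were 2.20 ± 0.10 and 2.87 ± 0.10 (limma adjusted p = 1.53e-06 and 3.6e-07), while FLCN was not called at 25 nM (0.10) and rose by 0.59 at 50 nM (adjusted p = 2.44e-05).

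LINC00342, a multi-exon RNA on the minus strand at chr2:95807118-95816215, has 92.1% of its transcript matched at 96.7% identity in the nearby AC092683.1, so its reads may include that copy's. It went from 0.804, 1.31 and 1.06 FPKM in DMSO to 3.59, 3.06 and 3.18 at 25 nM and 6.74, 5.17 and 5.04 at 50 nM. These groups did not overlap either, and the log2 fold changes were 1.56 ± 0.17 and 2.32 ± 0.17 (limma adjusted p = 9.04e-05 and 5.18e-06). Its nearest coding gene, ANKRD36C, lies 20704 bases away on the same strand and rose by 0.57 and 1.18 (adjusted p = 0.0292 and 0.000508).

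Further large rises were in less well known transcripts. AC005522.7 went from 0.454 to 0.652 FPKM over the DMSO libraries to 2.06 to 3.57 at 25 nM and 3.57 to 5.38 at 50 nM, with log2 fold changes of 2.19 and 2.78 (limma adjusted p = 7.35e-05 and 9.65e-06). All of its transcript matched AC005522.1 at 99.3% identity. RP11-84A19.4, which overlaps PTP4A2 on the same strand and shares no exon base with it, rose by 1.74 and 2.19 (adjusted p = 0.00065 and 0.000112), from 0.315 to 0.525 FPKM in DMSO to 1.51 to 3.29 at 50 nM. PTP4A2, a protein tyrosine phosphatase gene, fell by 0.26 and 0.37 in the same libraries. CTC-542B22.2, opposite UTP6, rose by 2.57 at 50 nM (adjusted p = 0.0013). Its rise of 1.60 at 25 nM was no longer called without 25 nM replicate 1 or 3 (adjusted p = 0.0551 and 0.0625), and was 1.03 without DMSO replicate 3.

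The largest fold change of any member named here belonged to CH507-513H4.3 (chr21:8437629-8438551, minus strand), and its position bears on what it measures. RefSeq places the whole row inside RNA18SN1, the 18S ribosomal RNA part of the RNA45SN1 precursor gene. This match, like that of the similar row below, was made by position alone. The strands of the row and of the RefSeq gene were not compared, so the row may lie antisense to it. Its level was 2.56, 1.9 and 1.74 FPKM in DMSO, 29.2, 33.5 and 38.3 at 25 nM. With 50 nM it was 66.6, 64.3 and 48.8 FPKM. The groups did not overlap, with log2 fold changes of 3.97 ± 0.17 and 4.79 ± 0.17 (limma adjusted p = 1.67e-06 and 4.58e-07). All of its transcript matched FP236383.2 at 100% identity. A similar row, CH507-513H4.5, lies inside the pseudogene RNA18SP5. It held 0.16 to 0.445 FPKM in DMSO, 1.43 to 2.69 at 25 nM and 0.358 to 4.38 at 50 nM. Its rise at 25 nM (2.47, adjusted p = 0.0242) was no longer called without DMSO replicate 1 or 2 or 25 nM replicate 1 or 3 (adjusted p from 0.0513 to 0.0848), or by voom (0.0599) or with a pseudocount of 1 (0.0518). The RNA selection of the libraries is not given in the sources used here, and the part of ribosomal RNA carried into the libraries was not tested. Without both rows the members' share of fragments was 0.268% in DMSO, 0.253% at 25 nM and 0.309% at 50 nM.

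NORAD (LINC00657, chr20:36045622-36050960, minus strand, unspliced) binds Pumilio proteins and is known for keeping chromosome number stable. Its level was 66.5, 68.3 and 68.5 FPKM in DMSO, 34.7, 37.4 and 27.1 at 25 nM, and 32.4, 32.5 and 34.6 at 50 nM. All treated libraries lay below all DMSO libraries, and the doses overlapped. The log2 fold change was -1.05 ± 0.10 at 25 nM and -1.03 ± 0.10 at 50 nM (SE, limma adjusted p = 5.61e-05 and 3.01e-05), with 0.02 between the doses. OVCH1-AS1 matches 86.2% of its transcript at 95.9% identity. EPB41L1, 40544 bases away, fell by 0.29 and 0.57.

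RP11-474O21.5 (chr1:12618900-12619244, minus strand), 1169 bases upstream of DHRS3 on the same strand, showed the steepest fall at 25 nM among named members. It stood at 9.21, 8.34 and 10.3 FPKM in DMSO, 2.11, 2.02 and 2.04 at 25 nM and 3.03, 2.68 and 2.88 at 50 nM. No groups overlapped, and 25 nM was the lowest. The log2 fold changes were -2.12 ± 0.08 and -1.66 ± 0.08 (limma adjusted p = 6.54e-07 and 8.82e-07), and the 0.46 between the doses was called as well (adjusted p = 0.00309). By voom on recovered fragments its adjusted p was 0.17. DHRS3, a retinaldehyde reductase gene, fell by 0.88 and 1.14.

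WI2-87327B8.2 (chr20:62596732-62603115, minus strand, 39330 bases from SLCO4A1, a transporter gene) stood at 12.2 to 12.9 FPKM over the DMSO libraries. It was at 3.89, 5.32 and 3.98 FPKM at 25 nM and 3.28, 4.01 and 4.35 FPKM at 50 nM. Treated libraries all lay below DMSO, by 1.50 and 1.67 on the log2 scale (limma adjusted p = 3.39e-05 and 8.48e-06), and the doses overlapped. SLCO4A1 fell by 0.33 and 0.45.

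A few falling members lie opposite a coding gene. RP11-259N19.1 overlaps HK2, which encodes the glycolytic enzyme hexokinase 2, and shares 0.525% of its exon bases with it. It went from 4.16, 3.89 and 4.09 FPKM in DMSO to 2.1, 1.51 and 1.8 at 25 nM and 1.8, 1.91 and 1.57 at 50 nM (log2 fold changes of -1.13 and -1.16, limma adjusted p = 7.44e-05 and 3.3e-05). HK2 fell by 1.29 and 1.93 (adjusted p = 3.3e-05 and 1.86e-06). AC009549.1 (ENSG00000270607, under a clone-based name in the authors' table) lies in an intron of NAV2 and fell stepwise, from 11.4, 10.9 and 11.1 FPKM to 7.8, 7.18 and 7.7 and then 4.77, 5.33 and 5.1. The 3 groups did not overlap, and each step was called (log2 fold changes of -0.56 at 25 nM, -1.12 at 50 nM and -0.57 between them). NAV2 fell by 1.02 at 25 nM and 0.90 at 50 nM. RP11-159G9.5, on the strand opposite CGGBP1 but not listed among the members that overlap a coding gene, fell by 1.18 and 1.12 (adjusted p = 0.00387 and 0.00393).

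Other falls were smaller in level or less stable. RP11-631N16.4 went from 1.12 to 1.96 FPKM in DMSO to 0.253 to 0.824 at 25 nM (-1.50, limma adjusted p = 0.00692) and was not called at 50 nM (-0.51). AC073046.25, 61 bases upstream of TET3, had a log2 fold change of -1.60 at 25 nM with an adjusted p of 0.0456, and 7 of the 9 leave-one-out fits (all but those without 25 nM replicate 1 or 50 nM replicate 3) ended the call, with adjusted p from 0.0502 to 0.125. Without 25 nM replicate 3, where it held 1 fragment, its log2 fold change was -0.896. RP11-439L18.2 (-1.45 at 50 nM, adjusted p = 0.0492) was likewise lost in 7, all but those without 25 nM replicate 2 or 3, with adjusted p from 0.0549 to 0.121.

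The tested microRNA host transcripts of the list were mostly called lower. Of 22 host lincRNA names listed, 11 were members and 7 were tested. At 25 nM 0 rose and 5 fell, with a median log2 fold change of -1.54 against 0.02 for all genes tested, of which 25.8% were called lower. At 50 nM 1 rose and 5 fell, with a median of -0.76 against 0.00 and 31.5% called lower. From 25 to 50 nM 3 rose and 0 fell. Of 4 other tested members named as host genes but not on this list, MIR3142HG fell at both doses. MIR5689HG (-0.32 and -0.16), MIR4458HG (-0.28 and 0.05) and MIR4435-2HG (0.18 and -0.03) were not called in the main fit. The libraries measured the host transcripts, and the mature microRNAs were not measured. Sequences are shown because they name what each changed host carries. They are the RefSeq mature strands (GRCh38.p14), 5′ to 3′, with the seed, bases 2 to 8, in capitals. The first 5 belong to hosts called lower at both doses, in the order MIR210HG, MIR22HG, MIR155HG, MIR34AHG and MIR193BHG, and miR-146a lies in MIR3142HG, which is not on the list. The last 2 belong to MIR222HG and share 1 seed.
hsa-miR-210-3p: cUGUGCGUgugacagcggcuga
hsa-miR-22-3p: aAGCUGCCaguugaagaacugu
hsa-miR-155-5p: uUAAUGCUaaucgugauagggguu
hsa-miR-34a-5p: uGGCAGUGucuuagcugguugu
hsa-miR-193b-3p: aACUGGCCcucaaagucccgcu
hsa-miR-146a-5p: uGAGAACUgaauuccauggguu
hsa-miR-221-3p: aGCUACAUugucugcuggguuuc
hsa-miR-222-3p: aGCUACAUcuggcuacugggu

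MIR210HG (chr11:565660-568457, minus strand) hosts miR-210, the microRNA best known for its induction by hypoxia-inducible factor. Its level was 3.8, 4.09 and 3.78 FPKM in DMSO, 1.03, 0.983 and 1.52 at 25 nM. With 50 nM it was 1.18, 1.05 and 1.27 FPKM. Treated libraries lay well below DMSO and overlapped each other. The log2 fold changes were -1.67 ± 0.15 and -1.66 ± 0.15 (SE, limma adjusted p = 3.65e-05 and 1.77e-05), and that between the doses was 0.01 (adjusted p = 0.977). RASSF7, 1639 bases away and convergent, was not called at 25 nM (0.07) and fell by 0.28 at 50 nM.

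MIR22HG, a host often induced by cellular stress, stood at 1.09, 0.85 and 0.884 FPKM in DMSO, 0.23, 0.143 and 0.18 at 25 nM and 0.337, 0.245 and 0.32 at 50 nM. Its treated libraries lay below all DMSO libraries (log2 fold changes of -1.88 ± 0.27 and -1.38 ± 0.27, limma adjusted p = 0.000469 and 0.00189). Its 50 nM libraries all lay above its 25 nM libraries, and the step between the doses was not called. MIR193BHG, which carries miR-193b and miR-365a, was at 1.7, 1.02 and 1.6 FPKM in DMSO and between 0.669 and 0.893 FPKM in the 6 treated libraries, with log2 fold changes of -0.78 and -0.79 (adjusted p = 0.00684 and 0.00536).

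In 3 hosts with a called step between the doses, the level at 50 nM lay between those at 25 nM and in DMSO. MIR155HG, whose microRNA is known from immune activation, went from 2.26, 1.96 and 2.03 FPKM to 0.708, 0.58 and 0.674 at 25 nM and 1.26, 0.988 and 1.4 at 50 nM. MIR3142HG, which carries the NF-kB-induced miR-146a, went from 4, 5.27 and 4.54 FPKM to 1.42, 1.41 and 1.33 and then 3.14, 2.88 and 3.21. MIR34AHG, the host of the p53-induced miR-34a, went from 0.849, 1.29 and 1.17 FPKM to 0.248, 0.11 and 0.272 and then 0.609, 0.632 and 0.563. In each of the 3 the groups did not overlap and 25 nM was the lowest. The log2 fold changes between the doses were 0.79 for MIR155HG, 1.09 for MIR3142HG and 1.22 for MIR34AHG (limma adjusted p = 0.00281, 0.000261 and 0.0087). Against DMSO at 50 nM, the log2 fold change was -0.74 for MIR155HG and -0.56 for MIR3142HG (adjusted p = 0.00132 and 0.000907). The call for MIR34AHG at 50 nM (-0.76, adjusted p = 0.0347) was lost without DMSO replicate 2 or 3 or any 1 of the 50 nM libraries (adjusted p from 0.0652 to 0.131), with a pseudocount of 0.01 (0.0647) and with a replicate block (0.061).

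MIR222HG was the host that rose. It stood at 0.597, 0.818 and 0.603 FPKM in DMSO, 0.712, 0.875 and 0.774 at 25 nM and 1.56, 0.982 and 1.64 at 50 nM. Only 50 nM lay above DMSO without overlap (0.93 ± 0.20, limma adjusted p = 0.00332), and its rise over 25 nM (0.72, adjusted p = 0.0236) was lost without 25 nM replicate 1 or 50 nM replicate 1 or 3 (adjusted p from 0.0689 to 0.0908), and with a replicate block (0.0512). MIR503HG was not called in the main fit (-0.57 and -0.09). Without 25 nM replicate 3 it was called lower at 25 nM (-0.84, limma adjusted p = 0.0234). MIRLET7BHG, C1orf132, MIR99AHG and MIR181A1HG were below the filter.

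Among 66 names of RNAs with described roles, 24 were members and 20 were tested. At 25 nM 5 rose and 4 fell, at 50 nM 7 rose and 4 fell, and between the doses 5 rose and 1 fell. The shares of all genes called higher and lower were 26.3% and 25.8%, 29.2% and 31.5%, and 14.7% and 18.8%. The list's medians were 0.02, 0.07 and 0.03, against 0.02, 0.00 and -0.01 for all genes. Besides MEG3, NORAD and LINC00342, the clearest were LUCAT1, LINC-PINT and CYTOR.

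LUCAT1, a transcript known to be induced by NRF2 and stress, was low only at the lower dose. It was at 2.47, 2.65 and 2.44 FPKM in DMSO, 1.23, 1.21 and 1.2 at 25 nM. With 50 nM it was 2.32, 2.15 and 2.4 FPKM. The 25 nM libraries lay below the 6 others. The log2 fold change was -0.996 ± 0.07 at 25 nM (limma adjusted p = 1.16e-05), -0.13 at 50 nM (adjusted p = 0.132) and 0.86 between the doses (adjusted p = 0.00019). ARRDC3, 54322 bases away on the same strand, fell by 1.54 and 1.55.

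LINC-PINT, listed as AC058791.1 and known as a p53-induced RNA that binds Polycomb complexes, stood at 0.474, 0.536 and 0.388 FPKM in DMSO, 0.722, 0.742 and 0.576 at 25 nM. With 50 nM it was 1.36, 1.08 and 1.4 FPKM. The groups did not overlap. It rose by 1.29 at 50 nM (limma adjusted p = 0.000201) and by 0.82 between the doses (adjusted p = 0.00684). The call at 25 nM (0.46, adjusted p = 0.048) was lost in 7 of the 9 leave-one-out fits, all but those without DMSO replicate 2 or 25 nM replicate 3, with adjusted p from 0.0509 to 0.144. CYTOR (LINC00152), often raised in tumours, went from 2.02 to 2.44 FPKM in DMSO to 3.08 to 4.14 at 25 nM and 2.97 to 3.31 at 50 nM, with log2 fold changes of 0.57 and 0.44 (adjusted p = 0.00336 and 0.0101). Its near copy MIR4435-2HG, which matches part of it, was not called in the main fit (0.18 and -0.03). At 25 nM MIR4435-2HG was called by voom (adjusted p = 0.047) and by limma with a replicate block (0.0417).

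EPB41L4A-AS1 rose at 25 nM (0.32, limma adjusted p = 0.00666) and was not called at 50 nM (0.17) in the main fit. Some alternative fits called it at 50 nM, with adjusted p from 0.0106 (limma, scaling by fragment totals) to 0.0456 (voom). LINC01116 was at 28 to 30.4 FPKM in DMSO and 29 to 33.3 at 25 nM, and fell to 21.2 to 25.1 at 50 nM (-0.32 against DMSO, adjusted p = 0.00591). LINC00339 rose from 25 to 50 nM by 0.28 (adjusted p = 0.00754). Its rise over DMSO (0.19, adjusted p = 0.0181) was lost without DMSO replicate 1 or 50 nM replicate 2 or 3 (adjusted p from 0.0533 to 0.0695). Calls for CASC15 and LINC00667 at 50 nM, and for LINC00324 and LINC00909 at both doses, each lost significance when single libraries were left out, 4 to 7 of the 9 per call, with adjusted p up to 0.142. These libraries were each of the DMSO and 50 nM libraries and 25 nM replicate 1 for CASC15, and each DMSO library and 50 nM replicates 2 and 3 for LINC00667. For LINC00324 they were the DMSO libraries and 25 nM replicate 1 at 25 nM, and DMSO replicates 1 and 3 and 50 nM replicates 1 and 2 at 50 nM. For LINC00909 they were the DMSO libraries, 25 nM replicates 2 and 3 and 50 nM replicate 2 at 25 nM, and the DMSO libraries and 50 nM replicates 1 and 2 at 50 nM. The farthest value from 0 among these 4 RNAs was -0.65, for LINC00324 at 50 nM. CRNDE, HIF1A-AS2, JPX, LINC00511, LINC00662 and LINC00941 were called in no contrast of the main fit. Their log2 fold changes lay between -0.38 (HIF1A-AS2 at 50 nM) and 0.21 (JPX at 50 nM). JPX was called at 50 nM with scaling by fragment totals (limma adjusted p = 0.0281) and without 50 nM replicate 1 (0.0135). Between the doses the same fits called it as well (0.0425 and 0.0366).

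Of the RNAs annotated as lincRNA and later found to encode a small protein, 2 were members. LINC00998 (SMIM30, which encodes a small membrane protein) was at 37.5, 38.1 and 39.2 FPKM in DMSO, 42.5, 48.1 and 47.7 at 25 nM and 35.5, 41 and 38.7 at 50 nM. It rose at 25 nM by 0.27 (limma adjusted p = 0.00684) and fell between the doses by 0.26 (adjusted p = 0.0128; 0.06 with scaling by fragment totals). LINC00467 had 0.15 at 25 nM (adjusted p = 0.0449) and -0.22 between the doses (adjusted p = 0.0172). The call at 25 nM was lost without any DMSO library, 25 nM replicate 2 or 3 or 50 nM replicate 2 (adjusted p from 0.0611 to 0.136), and that between the doses without 50 nM replicate 1 (adjusted p = 0.0621) or with scaling by fragment totals (-0.12, adjusted p = 0.117).

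Between the doses the largest named rise was in RP11-180P8.1, at 0.732, 1.01 and 0.25 FPKM at 25 nM and 2.17, 1.7 and 1.84 at 50 nM (1.54, limma adjusted p = 0.0205; 0.0665 without 50 nM replicate 1). LINC00106 lies in the pseudoautosomal region, whose sequence X and Y share, and is counted as listed on X, so the copy its reads come from cannot be told. It was at 1.93, 1.83 and 1.68 FPKM in DMSO, 1.71, 1.44 and 2.31 at 25 nM and 4.77, 4.04 and 5.03 at 50 nM. DMSO and 25 nM overlapped, and 50 nM lay above both (1.30 against DMSO and 1.31 against 25 nM, adjusted p = 9.52e-05 and 0.000558). RP11-359J14.2 and RP11-385D13.3, inside C2CD5 and TVP23C on the same strand, rose by 1.41 and 1.25 (adjusted p = 0.0209 and 0.0216). The first lost this call without 50 nM replicate 1 or 3 (up to 0.0817) and the second without 25 nM replicate 1 or 3 or 50 nM replicate 2 (up to 0.0666). RP11-888D10.3 was at 1.04 to 1.4 FPKM in DMSO and 1.13 to 1.25 at 25 nM, and fell to 0.473 to 0.827 at 50 nM (-0.79 against 25 nM, adjusted p = 0.0112; 0.059 by voom on recovered fragments). RP5-1021I20.2 was at 15.4, 15.5 and 17.2 FPKM at 25 nM and 9.62, 11.2 and 13 at 50 nM (-0.52, adjusted p = 0.00541), and AC010894.3 fell by 0.56 (adjusted p = 0.0129; 0.0527 without 50 nM replicate 1 and 0.0525 by voom).

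Distance to the nearest coding gene was the gap between the member and the nearest protein-coding row of the same table. That table leaves out coding genes listed at 0 in any library. The median distance was 5366 bases, and 575 members lay within 5 kb. At 50 nM the tested members that overlapped a coding gene had 38 of 96 called higher and 9 lower (39.6% and 9.38%), with a median log2 fold change of 0.32. Those under 1 kb away had 26 and 21 of 129 (20.2% and 16.3%, median 0.09). At 1 to 5 kb there were 13 and 9 of 68 (median 0.02), at 5 to 20 kb 27 and 10 of 101 (0.21), at 20 to 100 kb 28 and 17 of 116 (0.01) and at 100 kb or more 20 and 8 of 79 (0.15). Only the overlapping class lay above the 29.2% of all genes called higher, and the medians did not follow distance. Within 5 kb, overlapping members included, the median was 0.13 over 293 members, and at 50 kb or more it was 0.18 over 126. At 25 nM these medians were -0.00 and 0.04, and the second was -0.000307 without DMSO replicate 3 and 0.00098 without 25 nM replicate 3. In that comparison the class at 1 to 5 kb had 5 higher and 15 lower of 68 (7.35% and 22.1%), against 26.3% and 25.8% of all genes. Measured to the coding genes of RefSeq instead, the 50 nM medians were 0.12 over 336 members within 5 kb and 0.21 over 103 at 50 kb or more.

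**Figure D2:**
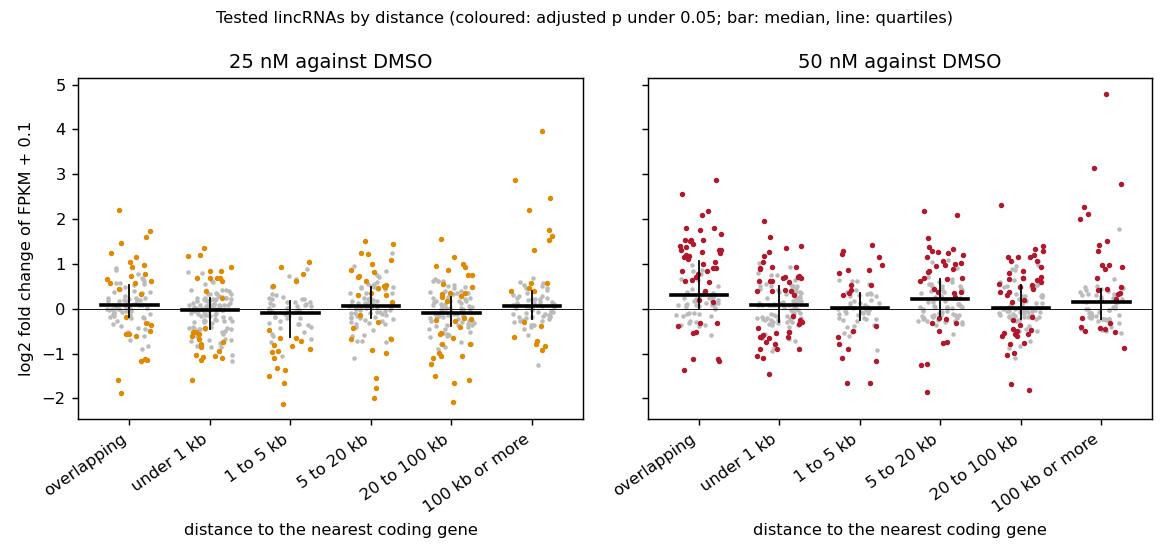
Log2 fold change (FPKM + 0.1) of each tested lincRNA by distance to the nearest coding gene, at 25 nM (left) and 50 nM (right) against DMSO, with called members coloured, the median as a bar and the quartiles as a line. At 50 nM the overlapping class has the highest median (0.32) and no class has a median below 0.

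The most abundant member of each distance class showed no common pattern. CTB-193M12.5, in an intron of NDE1 on the same strand, rose from 17.4 ± 1.47 FPKM in DMSO (SD, n = 3) to 25.9 to 30.4 FPKM over the 25 nM libraries and 25.9 to 29.9 FPKM over the 50 nM libraries (0.67 and 0.70, limma adjusted p = 0.000216 and 9.47e-05). NDE1 was at 0.19 and 0.11. AP001505.10, 1843 bases downstream of FAM207A, rose by 0.77 and 0.98 (adjusted p = 0.00419 and 0.00087), from 5.1 to 6.32 FPKM to 8.12 to 12.2 and 9.48 to 13.1, while FAM207A was at 0.06 and 0.02. LINC00958, 17359 bases from TEAD1 and convergent with it, went from 26.8 to 28.3 FPKM in DMSO to 22 to 24.6 at 50 nM (-0.24, adjusted p = 0.00262). Its call at 25 nM (-0.15, adjusted p = 0.0291) was lost without DMSO replicate 2 or 3 or 25 nM replicate 2 (up to 0.0976).

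Grouped by position and strand, the classes ranged in median from -0.01 to 0.70 at 50 nM. Of the 31 tested members overlapping a coding gene on the same strand, 16 were higher and 2 lower at 50 nM (51.6% and 6.45%, against 29.2% and 31.5% of all genes), with a median of 0.70. Their library medians against DMSO were 0.57, 0.54 and 0.85. Opposite-strand overlaps had 22 higher and 7 lower of 65 (median 0.27). Members downstream on the same strand had 40 and 17 of 142 (0.26), those upstream 16 and 8 of 81 (0.11), convergent ones 19 and 9 of 73 (0.14) and divergent ones 39 and 31 of 197 (-0.01). At 25 nM same-strand overlaps had 8 higher and 2 lower of 31 (median 0.19) and divergent members 17 higher and 31 lower of 197 (median -0.07). No test of a difference between these classes was run.

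**Figure D3:**
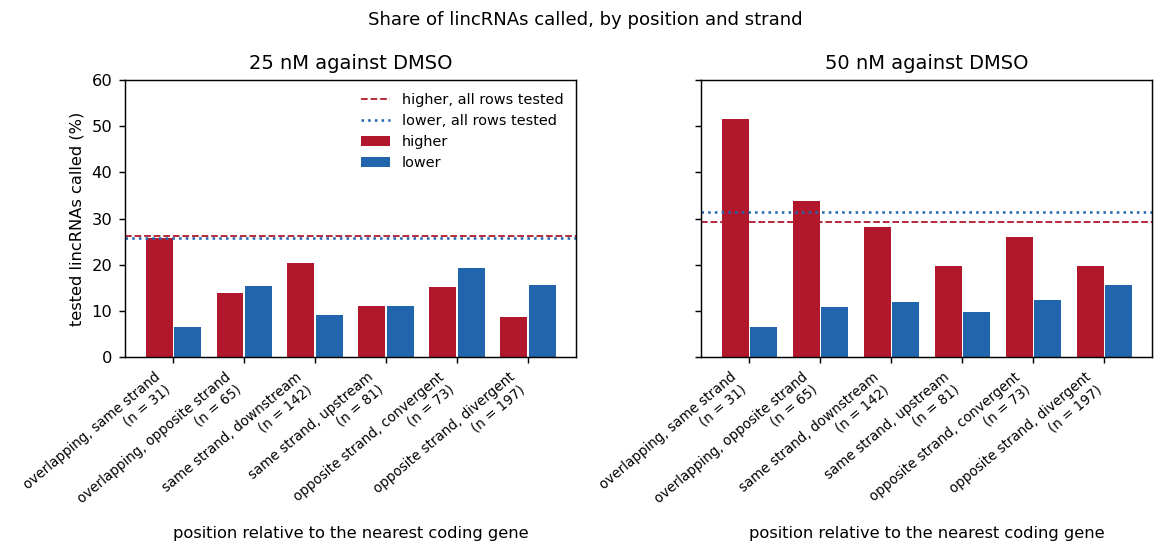
Percentage of tested lincRNAs called higher (red) and lower (blue) by position and strand relative to the nearest coding gene, at 25 nM (left) and 50 nM (right), with dashed and dotted lines at the percentages of all genes tested. Same-strand overlaps at 50 nM reach 51.6% higher, above the line at 29.2%, and every class lies below the line for lower calls.

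The exons of GENCODE 29 divided the overlapping members further. Of the same-strand overlaps, 32 shared no base with an exon of the coding gene, 24 of them inside its body, and of the 20 tested 11 rose and 2 fell at 50 nM (median 0.66). Those that shared exon bases had 5 rises and 0 falls of 11 tested (median 0.87). Opposite-strand members without a shared exon base had 12 and 4 of 34 (0.30), and those with one 10 and 2 of 28 (0.22). At that dose 29.2% of all genes were called higher and 31.5% lower, and no difference between these classes was tested.

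With all overlaps set aside, 392 tested members touched no other row of the table. At 50 nM 85 of them rose and 53 fell (21.7% and 13.5%, median 0.07), against 67 and 21 of the 197 that touched one (34% and 10.7%, median 0.30). Of all genes, 29.2% were called higher and 31.5% lower. Among members averaging at least 1 FPKM over the 9 libraries, the counts were 56 and 33 of 197 (median 0.07) and 35 and 17 of 96 (0.11). A high level in a single group can still carry a member past that filter, so these counts too are a description. Under that filter 28.9% of all genes were called higher and 37.7% lower. The gap between the medians of overlapping and free members was thus smaller among better expressed ones. By level, the 296 tested members under 1 FPKM had a median of 0.21 at 50 nM, the 245 at 1 to 5 FPKM 0.09, and the 48 at 5 FPKM or more 0.04.

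Members and their nearest coding genes were set side by side for 544 pairs, with 484 distinct coding genes. At 50 nM both were called in 157 pairs, in the same direction in 79 and in opposite directions in 78. In 67 of these the lincRNA rose while the coding gene fell, in 11 the reverse held, in 40 both rose and in 39 both fell. The coding partners as a group were called higher in 109 pairs and lower in 268. Over all coding rows tested 25.7% were called higher and 39.9% lower. Across the 544 pairs the log2 fold changes had a Spearman rho of 0.18 and a Pearson r of 0.22, as a description only, since all values share the same libraries. Overlapping pairs had 23 of 36 in the same direction (rho 0.21 over 92 pairs), and pairs 100 kb or more apart 5 of 19 (rho -0.05 over 69 pairs). The coding partners differed too: 28 were higher and 39 lower in overlapping pairs, against 9 and 40 at 100 kb or more. Those 69 pairs held 51 distinct coding genes. A link between distance and shared direction was not tested. At 25 nM both were called in 83 pairs, 56 in the same direction. The coding partners were called higher in 114 of the 544 pairs and lower in 227 at that dose. Over all coding rows tested the shares were 28% and 31.6%. The 2 comparisons share the DMSO libraries.

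**Figure D4:**
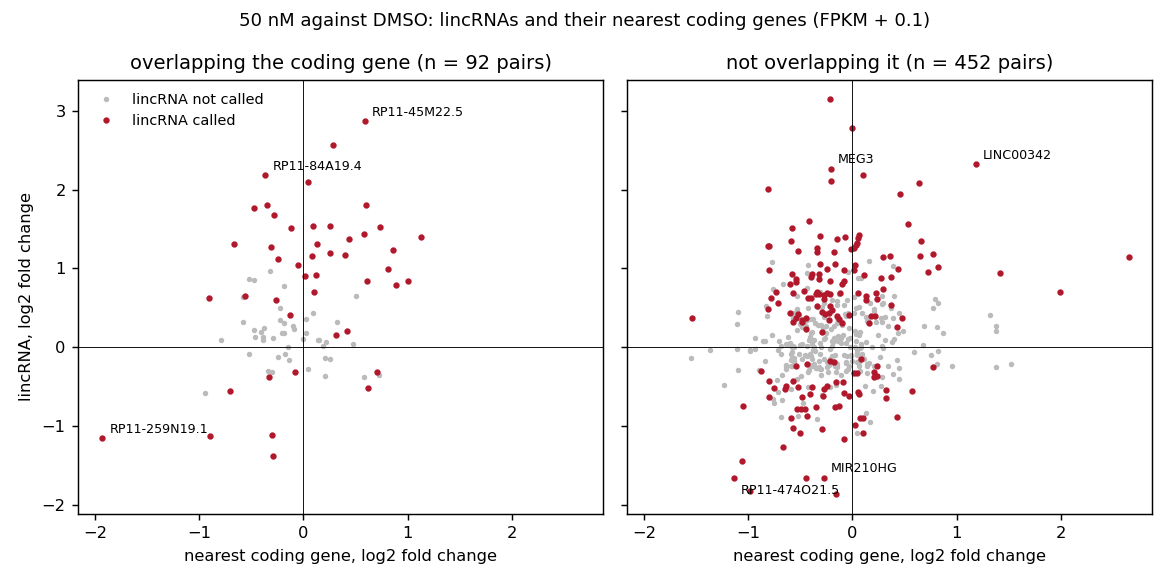
Log2 fold change at 50 nM against DMSO of each tested lincRNA (vertical) and of its nearest coding gene (horizontal), for the 92 overlapping pairs (left) and all others (right), with called lincRNAs in red. RP11-259N19.1 falls with HK2 in the lower left, RP11-84A19.4 rises where PTP4A2 falls, and MEG3 rises beside an uncalled neighbour.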

How the data were processed

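The authors deposited FPKM for 30673 genes and a filtered log2 table of 18859 genes with position, length, strand and type. The genome build named in the submitters' processing notes is hg38. The aligner, counting program, annotation release, strandedness and RNA selection are not given in the sources used here. In the filtered table the deposited log2 values equal the log2 of FPKM within 0.005, with no pseudocount. FPKM times length was a whole multiple of 1 step per library for 100% of genes (tolerance 0.01), which gave recovered fragments of 24365472 to 29245674 per library. These served for depth, shares and alternatives.

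limma 3.58.1 in R 4.3.3 (trend and robust eBayes) was fitted to log2(FPKM + 0.1) of the 15541 genes that reached 0.5 FPKM in 3 or more libraries, with all 9 libraries and group as the only term. The pseudocount understates fold changes of low genes. Benjamini-Hochberg adjustment ran over all tested genes, and the fit was tested on simulated data. Alternatives were pseudocounts of 0.01 and 1, no filter, a mean of at least 1 FPKM, scaling by fragment totals, voom, only the groups compared, a replicate block and leaving out each library. Distances were also taken to the coding genes of RefSeq. No set test was run.

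Named members were the 8 largest rises and 8 largest falls per dose (4 each between doses) among called members with a mean of at least 1 FPKM and no overlap between the groups' libraries. The 5 most abundant, the most abundant of each distance class and every tested member of 3 lists were added. Members, lists and rules were chosen with earlier results of these data known. Transcript copies were searched with blastn 2.17.0 among GENCODE 29 transcripts. Promoters and microRNAs are from RefSeq (GRCh38.p14).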

Additional observations from a re-analysis of the deposited data

Results flagged for a closer look

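In 2 lincRNAs the calls against DMSO went in opposite directions at the 2 doses, and the difference between the doses was itself tested. They were picked out after their values were seen. AP006621.6 (chr11:781645-782105, plus strand) overlaps the row AP006621.5 and held 5 to 21 fragments per library. It was at 1.82, 1.45 and 1.33 FPKM in the DMSO libraries. With 25 nM it was at 1.14, 0.681 and 1.02 FPKM, and with 50 nM at 2.18, 1.9 and 2.72 FPKM. Its log2 fold change was -0.65 at 25 nM, 0.53 at 50 nM and 1.19 between the doses (limma adjusted p = 0.0206, 0.0414 and 0.00235). The call at 25 nM was lost without DMSO replicate 1 or 25 nM replicate 2 (up to 0.0778). That at 50 nM was lost without DMSO replicate 2 or 3 or 50 nM replicate 1 or 3 (up to 0.143). By voom on recovered fragments neither dose was called against DMSO (adjusted p = 0.134 at 25 nM and 0.131 at 50 nM), so the opposite calls of AP006621.6 are lost there. The coding gene nearest to AP006621.6, PDDC1, lies 4157 bases away. PDDC1 was not called at 25 nM (-0.10) and rose by 0.37 at 50 nM (limma adjusted p = 0.00139). CTD-2600O9.1, opposite the kinesin gene KIFC3, was at 5.92, 5.79 and 6.17 FPKM, then 5.21, 5.22 and 5.29, then 6.51, 6.62 and 6.74, with no overlap between groups. Its log2 fold changes were -0.18, 0.15 and 0.33 (adjusted p = 0.00605, 0.0135 and 0.000795), and the call at 50 nM was lost without DMSO replicate 2 (0.0595) and by voom (0.0745). KIFC3 was at 0.12 and 0.31.

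Outside the filtered table, the FPKM table held 1497 further rows that GENCODE 29 types as lincRNA, each listed at 0 in some library. Of these, 34 were above 0 in all 3 libraries at 50 nM and listed at 0 in all 3 DMSO libraries, and 11 showed the reverse. At 25 nM the same counts were 12 and 14. Rows above 0 numbered 685, 713 and 759 in the DMSO libraries, 682, 699 and 657 at 25 nM, and 815, 825 and 822 at 50 nM. No fold is given against a group listed at 0. Genes of every type together also showed more rows above 0 at 50 nM, with a mean of 25936 per library against 23939 in DMSO. Gains and losses were not counted for other gene types, so whether the 34 and 11 are particular to lincRNAs was not tested.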

How the results depend on the processing

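Over 174 single-member contrasts of 58 members and 2934 alternatives, 2748 kept direction and call, 141 lost the call, 45 gained it and 0 reversed. A pseudocount of 1 gave smaller fold changes for low members, such as -0.71 in place of -1.88 for MIR22HG at 25 nM. For members higher and lower the counts without a filter (1177 members) were 114 and 143 at 25 nM, 243 and 100 at 50 nM and 167 and 26 between doses. Of all genes, 22% and 22.8%, 27% and 27.3%, and 14.8% and 15.1% were called in that setting. With a mean of at least 1 FPKM (293 members) the counts were 65 and 50, 91 and 49, and 63 and 20. All genes gave 30.2% and 30.1%, 28.9% and 37.7%, and 15.4% and 24.1% there. Fewer or more members enter by construction. Restricted, after seeing the data, to the 392 members overlapping no other row, the counts were 52 and 58, 85 and 53, and 53 and 12. Between the doses the number lower was 10 with scaling by fragment totals and 12 with only the groups compared. Of all genes, 8.72% and 12.8% were called lower in these 2 settings. Leaving out each library gave 71 to 88 higher and 64 to 84 lower at 25 nM, 115 to 158 and 53 to 81 at 50 nM, and 64 to 100 and 12 to 23 between doses. The median at 50 kb or more at 25 nM (0.0355) was -0.0551 without a filter, 0.11 at a mean of at least 1 FPKM and -0.000307 (without DMSO replicate 3) to 0.0394 leaving out each library. At 50 nM it was 0.0929 with a pseudocount of 1 and -0.0116 at a mean of at least 1 FPKM. Within 5 kb at 50 nM it was 0.20 with scaling by fragment totals and 0.18 for within 1 kb. The fragment share at 25 nM was 0.254% without the most abundant member and 0.253% without the rows inside ribosomal RNA genes (a choice made after seeing the data). Shares of the FPKM summed over all 30673 genes were 0.539%, 0.475% and 0.536%. The replicate numbers do not pair the libraries: deviations of same-numbered libraries correlated between -0.05 and 0.08, and 3 of 9 libraries correlated best with their own number. A fit with a replicate block gave 83 and 73, 145 and 65, and 84 and 20. Of all genes, that fit called 25% and 24.2%, 28.4% and 30.2%, and 13.1% and 16.4%. Low depth limits single members: the median tested one had 31 fragments per library.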
